A study of Mus musculus with 6 samples.

Results

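The 32 genes described here carry a cell through G2 and mitosis. They encode the mitotic cyclins and the kinase they activate, the Aurora and Polo kinases, the chromosomal passenger complex, kinetochore and spindle checkpoint proteins, kinesins and spindle proteins, an activator and a ubiquitin-conjugating enzyme of the anaphase-promoting complex, and the chromosome proteins Mki67 and Top2a. They were named one by one and read from the deposited table by gene symbol. Each of the 32 had 1 row among the 27761 rows of the table, and each passed the expression filter of 1 FPKM or more in at least 3 libraries, which 12953 genes passed. FPKM is the number of fragments per kilobase of transcript and 1000000 reads, so levels may be compared between genes.

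The series measured messenger RNA of mouse bone marrow B220+ cells, the fraction that carries the B220 form of CD45, in 2 groups of 3 libraries. One group has the genotype WT and the other PELI2 knockout, titled PELI2-CKO, and the comparison asks which genes differ with that genotype. Strain, age, sex, the allele and what drives a recombinase are not given in the sources used here, nor whether replicates are separate animals, so p-values measure only the spread between these libraries. The steps between low values put the depth at 16.6 to 18.1 times 1000000 reads per library, so 1 FPKM on a transcript of 1 kb was 16.6 to 18.1 reads.

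Peli2, the targeted gene, whose Pellino protein attaches ubiquitin to partners in innate immune signalling, was listed at 2.03, 2.54 and 1.99 FPKM in WT, against 3.07, 2.70 and 2.47 FPKM for the PELI2 knockout label. The groups overlapped and the knockout mean was the higher one by 0.556 FPKM (two-sided exact permutation test, p = 0.2, where the smallest p that 3 against 3 libraries allow is 0.1). A value per gene does not separate exons, so the direction of every difference below is that of the label, and these libraries are called knockout-labelled. B-lineage genes were present in each library: Cd79a, a chain of the B cell receptor complex, ran from 488 to 724 FPKM, and Ptprc, which encodes CD45, ran from 40.1 to 45.1 FPKM.

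In dividing cells these genes are transcribed in a wave that begins in S phase and peaks in G2 and mitosis, and many of the proteins are destroyed by the anaphase-promoting complex as mitosis ends. Their promoters are held silent in resting cells by the DREAM complex and opened by the B-MYB and FOXM1 factors. A pair of elements recurs in such promoters, the CCAAT box, bound by NF-Y, and the cell cycle homology region close to the start site. In bone marrow the pro-B cell and the large pre-B cell divide, driven by interleukin-7 and the pre-B cell receptor, and the small pre-B and later cells rest.

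Sequences of 6 of the promoters are shown because they hold the elements that these genes are known to share. They are the 150 bases before the RefSeq start site (GRCm38.p6), 5′ to 3′ on the gene's strand. Capitals mark CCAAT boxes (CCAAT, or ATTGG for the other strand) and the letters of the homology region (TTTGAA or TTCGAA, or TTCAAA for the other strand). The first 3 hold boxes spaced by 32 or 33 bases, and the others hold a box and a homology region in the same window.
Ccnb2, chr9:70421555-70421704, minus strand: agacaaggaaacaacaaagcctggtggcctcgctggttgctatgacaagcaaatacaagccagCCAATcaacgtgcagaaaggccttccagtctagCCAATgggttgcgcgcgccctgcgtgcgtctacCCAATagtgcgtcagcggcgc
Cdk1, chr10:69352913-69353062, minus strand: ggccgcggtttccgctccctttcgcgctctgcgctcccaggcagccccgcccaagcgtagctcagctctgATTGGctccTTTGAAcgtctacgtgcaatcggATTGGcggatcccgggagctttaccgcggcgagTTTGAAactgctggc
Hmmr, chr11:40733438-40733587, minus strand: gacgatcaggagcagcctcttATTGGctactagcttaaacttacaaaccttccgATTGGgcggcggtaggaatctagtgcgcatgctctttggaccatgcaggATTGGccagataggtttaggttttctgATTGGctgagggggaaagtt
Kif11, chr19:37376232-37376381, plus strand: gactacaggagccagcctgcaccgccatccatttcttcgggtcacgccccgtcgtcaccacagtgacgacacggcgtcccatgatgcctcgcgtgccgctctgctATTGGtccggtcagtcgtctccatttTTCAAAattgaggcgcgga
Cdc20, chr4:118437344-118437493, minus strand: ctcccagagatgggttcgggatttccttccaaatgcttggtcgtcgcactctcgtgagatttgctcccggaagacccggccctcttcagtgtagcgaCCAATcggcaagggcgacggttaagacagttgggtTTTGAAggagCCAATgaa
Top2a, chr11:99024190-99024339, minus strand: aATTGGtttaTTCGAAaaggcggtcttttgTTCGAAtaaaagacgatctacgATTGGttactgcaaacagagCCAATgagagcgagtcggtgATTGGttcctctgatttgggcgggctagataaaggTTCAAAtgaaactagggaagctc

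The letters were searched in all RefSeq promoters of 300 bases, from 250 before to 50 after the start, on both strands. A promoter entry was found for 26 of the 32 genes, with 27 entries since Prc1 has a pair. Entries for Ccna2, Cdc25c, Aurkb, Incenp, Kif20a and Tpx2 were missing. A CCAAT box stood in 22 of the 27 (81.5%), against 37.4% of all 32851 promoters, and at least 2 boxes stood in 15 (55.6%), against 11.7%. Letters of the homology region stood in 21 of 27 (77.8%), against 19.2%. The spacing of the boxes was looked at after the sequences had been seen. Its range was thus set with these entries known, which favours them over all promoters, so the shares by spacing are no test. Boxes of one orientation with first bases 31 to 34 bases apart were found in 8 of the 27 entries (29.6%), those of Ccnb1, Ccnb2, Cdk1, Aurka, Nek2, Cdca8, Hmmr and Ube2c, and in 0.895% of all promoters. Among entries with at least 2 boxes they were found in 8 of 15 (53.3%) and in 7.65% of 3842 in all. In the Ccnb2 sequence above, 3 boxes follow each other at 33 and 33 bases. These matches describe letters in a window and no site of binding, and the window of 150 bases holds fewer of the homology regions, in 8 of 27 entries.

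All 32 genes were expressed in both groups, and their levels spanned 6.92 to 119 FPKM as means over the 6 libraries. Mki67, the antigen Ki-67 that coats mitotic chromosomes, stood highest and Ttk, a checkpoint kinase, lowest. Mki67 had a higher mean than 97.2% of the genes tested and Ttk than 46.6%. Below Mki67 came Ccnb2 at 87.9, Top2a at 86.2, Cdc20 at 77.7 and Incenp at 74.9 FPKM, neighbours whose ranges over the 6 libraries overlapped. A gap followed to Ube2c at 60.2 and Kif11 at 60.1 FPKM, then to Ccna2 at 51.3 and Plk1 at 44.0 FPKM. At the low end the range of Cdc25c, at 9.83 FPKM, overlapped those of its neighbours Cenpf, at 10.5 FPKM, and Nuf2, at 9.52 FPKM, while Ttk lay apart below them.

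No gene of the 32 passed the threshold of 0.05 in limma's test between the groups on log2(FPKM + 1) with Benjamini-Hochberg adjustment over all 12953 genes, and the lowest adjusted p was 0.256, for Cdc25c. Over all genes tested, 3 (0.0232%) had an adjusted p under 0.05, none of them among the 32: Sva, Igkv3-10 and Srp54, named here only because they were the ones called. An unadjusted p under 0.05 was reached by 1 of 32 (3.12%), a higher mean, against 2342 of all genes tested (18.1%; 9.2% with a higher and 8.88% with a lower knockout mean). For 8 of the 32 the ranges of the groups were apart, 3 with the knockout libraries above and 5 with them below. Over all genes tested 25.8% were apart, 11.5% above and 14.3% below, so the share of the 32 lay near the background. The 32 differences, knockout minus WT on the log2 scale, had a median of 0.01, with 17 means higher and 15 lower, beside -0.01 for all tested genes. Their median was -0.01 without WT replicate 1 and -0.02 without knockout replicate 2, each with 14 higher and 18 lower. With each library rescaled to the same total, 4 means were higher and 28 lower. Their median was then -0.06 and that of all genes -0.09, and genes at an unadjusted p under 0.05 were 726 higher and 2331 lower, in place of 1192 and 1150. The median of the 32 minus that of all genes was 0.025 as deposited and 0.0233 after rescaling, but -0.001 without WT replicate 1 and -0.0077 without knockout replicate 2.

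The differences were measured closely enough to bound their size. The 95% interval (log2, limma, unadjusted) reached a median of 0.14 to either side of the estimate, and for all 32 genes it lay within 0.32 of 0 in either direction, against 53.6% of all genes tested. The bound farthest from 0 was that of Cdc25c, whose interval ran from 0.01 to 0.29 (log2). The median size of the difference, whatever its sign, was 0.04 for the 32 genes and 0.10 for all genes (log2). These comparisons with all genes were not matched for level, so they do not show a trait of the 32 genes apart from their FPKM. The median within-group SD was 0.06 (log2) for the 32, and 0.08 for the 6545 tested genes in the same range of mean FPKM. These intervals hold for FPKM as deposited.

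**Figure D1:**
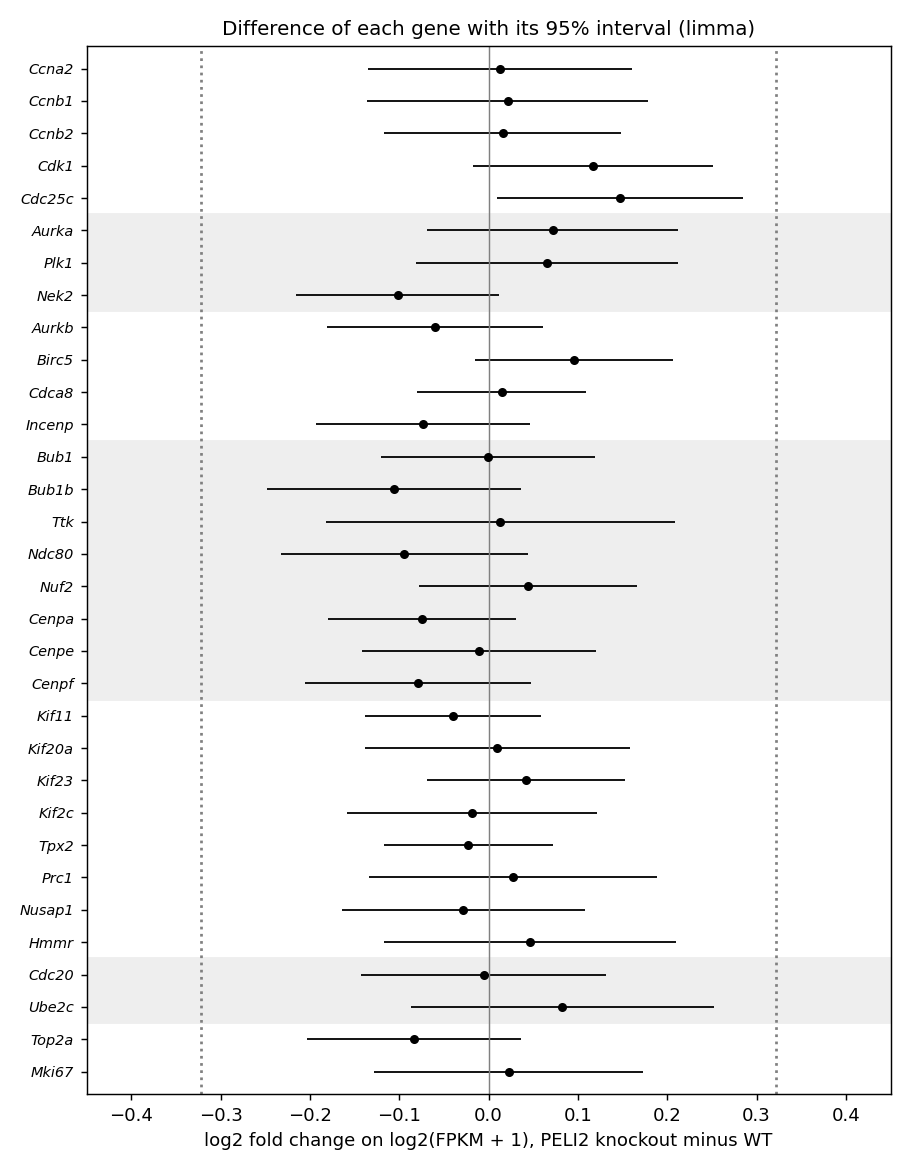
Log2 fold change of each of the 32 genes on log2(FPKM + 1), PELI2 knockout minus WT, with the 95% interval from limma (3 libraries per group); shaded bands separate the functional groups and dotted lines mark a log2 change of 0.32 in either direction. Every interval lies between the dotted lines, and 31 of 32 include 0.

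**Figure D2:**
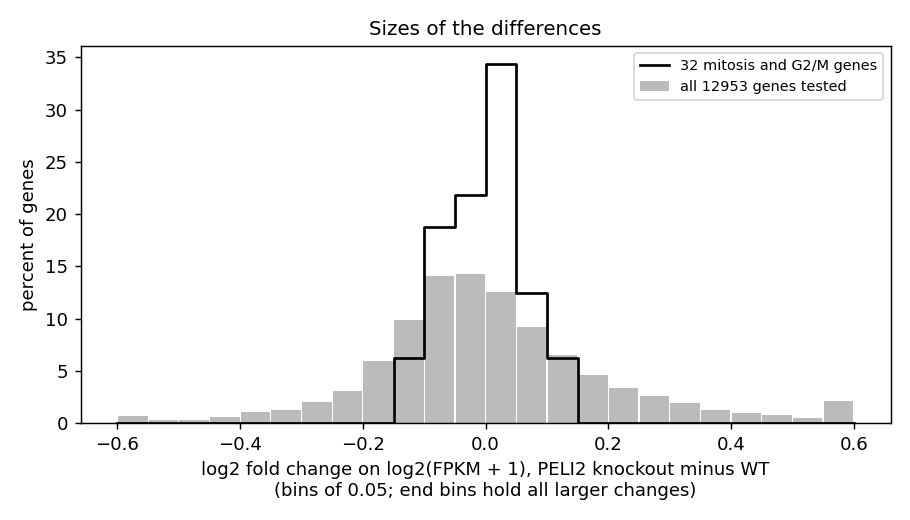
Percent of genes by log2 fold change (PELI2 knockout minus WT, bins of 0.05), as grey bars for all 12953 genes tested and as a black line for the 32 mitosis and G2/M genes. The 32 genes lie between -0.11 and 0.15, while the end bins show that all genes reach beyond 0.55 in both directions.

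The cyclins drive entry into mitosis by activating CDK1. Ccnb1, cyclin B1, stood at 30.6, 29.2 and 32.7 FPKM in WT, against 29.1, 32 and 32.9 FPKM in the knockout-labelled libraries. Ccnb2, cyclin B2, stood at 89.0, 82.8 and 90.4 FPKM in WT, against 84.8, 89.5 and 90.6 FPKM in the other group. Both groups overlapped for both cyclins, and each library held 0.343 to 0.363 times as much Ccnb1 as Ccnb2, at 0.353 ± 0.009 in WT and 0.354 ± 0.010 in the other group (SD, n = 3). Ccna2, cyclin A2, which acts from S phase on, stood at 49.1, 51.5 and 52.5 FPKM in WT, against 47.98, 54.9 and 51.8 FPKM in the other group. The log2 fold changes of the 3 cyclins were 0.01 to 0.02 as deposited and turned negative after rescaling, and the smallest adjusted p of the 3 was 0.888 (limma).

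Cdc25c and Cdk1 were 2 of the 3 genes whose knockout libraries all lay above the WT libraries. Cdc25c encodes the phosphatase that removes the inhibitory phosphates from CDK1. It stood at 9.07, 9.76 and 8.99 FPKM in WT, against 10.98, 10.12 and 10.04 FPKM in the knockout-labelled libraries, all of them higher. The log2 fold change was 0.15 ± 0.06 (SE), with an adjusted p of 0.256 and an unadjusted p of 0.0397 from limma. It was the gene with the unadjusted p under 0.05, and that p was lost without WT replicate 1 or 3, without any 1 knockout replicate, after rescaling, without limma's trend, and with a replicate block. Cdk1, the catalytic subunit, stood at 22.4, 22.4 and 21.9 FPKM in WT, against 23.2, 23.4 and 26.0 FPKM in the other group, with the third knockout replicate apart from the other two (log2 fold change 0.12 ± 0.06 SE, adjusted p = 0.331). Cdk1 lies on chromosome 10, minus strand, from 69335146 to 69352938 (GRCm38).

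Among the kinases of the centrosome and spindle, Plk1, which starts centrosome maturation and many later steps, stood at 42.8, 40.0 and 46.2 FPKM in WT, against 43.9, 45.5 and 45.5 FPKM in the knockout-labelled libraries. Aurka, the Aurora kinase of the spindle poles, was tight in WT at 27.8, 27.5 and 27.7 FPKM and wider in the other group at 26.9, 29.7 and 30.8 FPKM. The groups overlapped for both. Nek2, which splits the centrosomes, stood at 22.4, 20.7 and 21.5 FPKM in WT, against 19.7, 20.1 and 20.2 FPKM in the other group. All 3 knockout libraries lay below the lowest WT library, by a log2 fold change of -0.10 ± 0.05 (SE, limma adjusted p = 0.315).

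The chromosomal passenger complex joins the kinase Aurkb with the scaffold Incenp and the targeting subunits Birc5 (survivin) and Cdca8 (borealin), and corrects faulty attachments of chromosomes to the spindle. Its 4 genes did not differ in one direction. Birc5 stood at 29.6, 30.0 and 31.1 FPKM in WT, against 31.2, 33.2 and 32.6 FPKM in the knockout-labelled libraries, with a narrow gap between the groups (log2 fold change 0.10 ± 0.05 SE, limma adjusted p = 0.333). Aurkb stood at 40.1, 38.1 and 38.8 FPKM in WT, against 36.1, 39.3 and 36.8 FPKM in the other group, and Incenp at 80.1, 74.0 and 76.5 and at 73.1, 74.6 and 71.1 FPKM. Cdca8 was the steadiest of the 4, between 22.5 and 23.1 FPKM in all 6 libraries. The log2 fold changes of the other 3, -0.06 for Aurkb, -0.07 for Incenp and 0.01 for Cdca8, were within about 1.5 standard errors of 0, and that of Cdca8 was -0.06 after rescaling.

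The 8 genes of the kinetochore and the spindle checkpoint hold chromosomes to microtubules and delay anaphase until all are attached. Their summed level, to which genes of high FPKM add most, was 161 to 164 FPKM in WT, against 155 to 158 FPKM in the knockout-labelled libraries. Their mean on log2(FPKM + 1), relative to the 6 libraries, overlapped, at -0.005, 0.032 and 0.031 in WT, against -0.025, 0.006 and -0.038 in the other group. Of the 8 means 6 were lower there, beside 6940 of all 12953 genes tested, with 0 of 8 at an unadjusted p under 0.05. Bub1b, the checkpoint protein BubR1, stood at 43.5, 38.6 and 40.9 FPKM in WT, against 36.7, 37.7 and 39.6 FPKM in the other group, an overlap of 1 library (log2 fold change -0.11 ± 0.06 SE, limma adjusted p = 0.395). Cenpa, the histone H3 variant that marks the centromere, stood at 40.5, 39.9 and 38.9 FPKM in WT, against 38.2, 38.4 and 36.6 FPKM in the other group, with no overlap (log2 fold change -0.07, adjusted p = 0.417). Ndc80 and Nuf2 form one rod that binds the microtubule. Ndc80 stood at 23.0, 21.5 and 24.3 FPKM in WT, against 21.6, 20.6 and 21.9 FPKM in the other group, while Nuf2 stood at 8.93, 9.40 and 9.76 and at 9.48, 9.72 and 9.83 FPKM. The ratio of Ndc80 to Nuf2 was 2.45 ± 0.15 in WT and 2.21 ± 0.08 in the other group (SD, n = 3), with the highest knockout ratio, 2.275, just under the lowest WT ratio, 2.282. It was among several ratios of members formed, and none was tested. That of Aurka to Aurkb was also apart, at 0.693 to 0.72 in WT and 0.746 to 0.838 in the other group, and the rest overlapped. Bub1, the kinase that recruits checkpoint proteins, had means of 16.6 and 16.5 FPKM. Ttk ran from 6.08 to 7.46, Cenpe, a kinesin of the kinetochore, from 14.4 to 15.97, and Cenpf from 9.92 to 11.3 FPKM over all libraries, and for each the groups overlapped.

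The kinesins and spindle proteins build the bipolar spindle and the midzone. Kif11, the motor that pushes the poles apart, stood at 62.1, 60.7 and 60.3 FPKM in WT, against 59.4, 59.7 and 58.8 FPKM in the knockout-labelled libraries, and Tpx2, the activator of Aurora A, at 38.7, 38.4 and 39.3 and at 38.3, 38.0 and 38.2 FPKM. Both had all knockout libraries below all WT libraries, with log2 fold changes of only -0.04 and -0.02 and adjusted p of 0.638 and 0.788 (limma). The other 6 overlapped between groups. Prc1, which bundles midzone microtubules, stood at 14.2, 14.6 and 15.01 FPKM in WT, against 14.2, 16.4 and 14.1 FPKM in the other group, where the second replicate was apart. Nusap1 ran from 28.0 to 31.4 FPKM and Hmmr, a spindle pole protein, from 13.5 to 15.6 FPKM, with the first knockout replicate the lowest of all libraries for Nusap1. Kif20a and Kif23, motors of cytokinesis, ran from 15.1 to 17.2 and from 18.4 to 19.9 FPKM, and Kif2c, which takes microtubules apart, from 11.1 to 12.4 FPKM.

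Cdc20 activates the anaphase-promoting complex and Ube2c supplies it with ubiquitin. Cdc20 stood at 82.4, 73.2 and 78.2 FPKM in WT, against 78.6, 75.5 and 78.5 FPKM in the knockout-labelled libraries, with means of 77.9 and 77.5 FPKM. Ube2c stood at 59.7, 54.8 and 60.7 FPKM in WT, against 58.0, 67.1 and 60.9 FPKM in the other group. Both overlapped between groups. Of the chromosome proteins, Mki67 stood at 114, 123 and 118 FPKM in WT, against 117, 129 and 115 FPKM in the other group, also with overlap. Top2a, the topoisomerase that untangles sister chromatids, stood at 90.3, 89.9 and 85.9 FPKM in WT, against 80.3, 85.7 and 85.0 FPKM in the other group. The knockout libraries all lay below WT, the nearest by less than 1 FPKM, and the log2 fold change was -0.08 ± 0.05 (SE, limma adjusted p = 0.419).

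**Figure D3:**
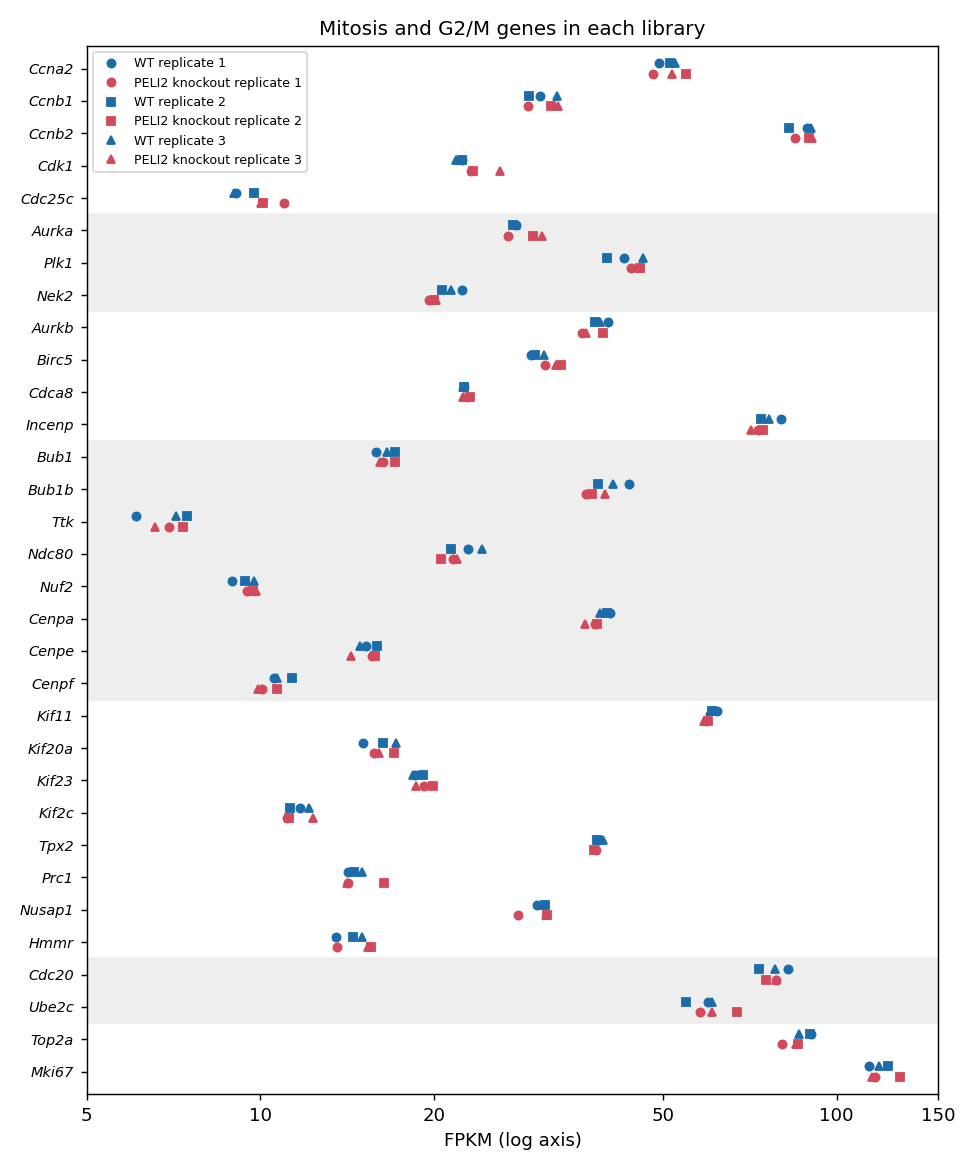
FPKM (log axis) of the 32 genes in each of the 3 WT (blue) and 3 PELI2 knockout (red) libraries, with a symbol per replicate number and shaded bands for the functional groups. The spread between genes, from 6.08 FPKM for Ttk to 129 FPKM for Mki67, is wide beside the spread between libraries of one gene.

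Over the 6 libraries, both groups pooled, the 496 pairs of the 32 genes had a median Pearson r of 0.11, from -0.95 to 0.96, and 56.5% of them were above 0, where all points share the same libraries and the range of each gene is small. The mean of the 32 genes on log2(FPKM + 1) stayed within 0.04 of its own average in every library, lowest in knockout replicate 1 (-0.03) and highest in knockout replicate 2 (0.03). Ccna2 followed this mean most closely (r = 0.94, 6 libraries), then Hmmr (0.84) and Prc1 (0.81), while Cdc25c ran against it (-0.40). Each of these genes is itself part of the mean, which raises its r, and they were picked as the extremes of the 32. Outside the lists of cell cycle genes, the profiles most like the mean over the 6 libraries were those of Mbd2 (r = 0.98), Med19 (0.97), Arhgef39 (0.97), Gm17066 (0.97) and Smpd4 (0.96). They were picked as the highest r among all genes tested, over only 6 points, so values this high do not show a link to the 32 genes. Such a link was not tested.

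Other genes of the pathway were read from lists of the same fit. None of their members passed the adjusted threshold (limma). Of 35 further kinetochore and checkpoint genes 2, both lower, had an unadjusted p under 0.05, and the median was 0.01 on the log2 scale (-0.06 after rescaling, -0.0075 without knockout replicate 2 and 0.03 without knockout replicate 1). The 2 were Cenpm, at 15.4 ± 0.70 FPKM in WT, against 13.2 ± 0.73 FPKM in the knockout-labelled libraries, and Ska2, at 8.95 ± 0.58 and 7.57 ± 0.63 FPKM (SD, n = 3). Of 30 further spindle and cytokinesis genes 1, also lower, did so, and the median was -0.02 as deposited, -0.09 after rescaling, 0.0001 without knockout replicate 1 and -0.04 without knockout replicate 2. That gene was the kinesin Kif20b, at 11.01 ± 0.25 and 10.03 ± 0.12 FPKM. Of 17 genes of the anaphase-promoting complex and its regulators 0 passed the unadjusted threshold, and the median was -0.05 as deposited, -0.13 after rescaling and -0.03 without knockout replicate 3. All these shares lay under the 18.1% of all genes tested.

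Condensin and cohesin, the rings that compact and join chromatids, had 18 of 21 means lower as deposited, beside 6940 of all 12953 genes tested. Their median on the log2 scale was -0.03 as deposited, -0.11 after rescaling and -0.07 without knockout replicate 2. An unadjusted p under 0.05 was reached by 3 of them (14.3%), all lower, beside 18.1% of all genes tested, 8.88% lower. Esco2, which acetylates cohesin, stood at 10.4, 10.5 and 11.2 FPKM in WT, against 8.82, 9.85 and 8.94 FPKM in the knockout-labelled libraries. Smc3, a core subunit of cohesin, stood at 35.3, 34.3 and 33.3 and at 30.8, 31.8 and 31.4 FPKM, and Nipbl, the loader, at 40.7, 40.0 and 35.6 and at 35.4, 34.7 and 31.3 FPKM. For none of these 3 genes, named for the smallest p of the list, did the groups overlap, and the adjusted p were 0.199, 0.228 and 0.251 (limma). Over the whole list the groups were apart for 5 of 21 genes, all lower. Over all genes tested they were apart for 25.8%, 11.5% above and 14.3% below. The share of the list in either direction lay near the background, while its share below was larger than that of all genes. That excess was not tested.

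Regulators of entry into mitosis had the largest share of the pathway lists, 5 of 27 tested genes at an unadjusted p under 0.05 (18.5%), close to the background. Of these, 2 were higher and 3 lower. The ranges of the groups were apart for 11 of the 27, 4 above and 7 below, a larger share than the 25.8% of all genes tested. Cdc25b, the phosphatase that gives CDK1 its first activation, stood at 90.1, 79.6 and 82.5 FPKM in WT, against 68.4, 72.7 and 70.0 FPKM in the knockout-labelled libraries, an unadjusted p of 0.00481 and an adjusted p of 0.157 (limma). Its log2 fold change of -0.25 ± 0.06 (SE) lay opposite in sign to the 0.15 of Cdc25c and the 0.15 of Cdc25a, the family member of the G1 to S transition, at 8.53 ± 0.16 and 9.55 ± 0.32 FPKM. Lin9, a subunit of DREAM, stood at 5.22 ± 0.09 and 4.58 ± 0.18 FPKM, and the phosphatase Cdkn3 at 9.01 ± 0.88 and 10.9 ± 0.96 FPKM. S phase genes had 24 of 30 means higher as deposited, beside 6013 of all 12953 genes tested. Their median of 0.03 was -0.04 after rescaling and -0.0003 without WT replicate 2, the library with the lowest mean of this list, and it was 0.05 without WT replicate 3 and 0.06 without knockout replicate 1. At an unadjusted p under 0.05, 2 were higher, Tk1 at 16.8 ± 0.82 and 18.7 ± 0.97 FPKM and Ccne1 at 13.2 ± 0.68 and 15.4 ± 1.78 FPKM, and 2 were lower, Uhrf1 at 102 ± 7.06 and 88.4 ± 1.95 FPKM and Rfc3 at 13.7 ± 0.79 and 12.1 ± 0.41 FPKM.

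Marker lists of several cell types lay apart between the groups where the 32 genes did not. In a bulk sample fewer cells of a type and less RNA per cell cannot be told apart. All 16 pro-B and pre-B cell genes had lower means in the knockout-labelled libraries, by a median log2 difference of -0.40. Of the 16, 11 (68.8%) had an unadjusted p under 0.05 (limma), beside 18.1% of all genes tested. The summed level of the list ran from 1298 to 1649 FPKM in WT and from 1102 to 1116 FPKM in the other group. Ebf1, which sets the B lineage and is on this list and on that of the B lineage, stood at 42.3 ± 4.38 and 30.8 ± 0.82 FPKM. Over the same libraries the summed level of the 32 genes ran from 1157 to 1185 FPKM in WT and from 1138 to 1199 FPKM in the other group.

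Libraries of the WT group differed among themselves in these lists. On the log2 scale, relative to the 6 libraries, the pro-B and pre-B mean was 0.34, 0.001 and 0.26 in WT, with replicate 2 apart from the others, and -0.20, -0.20 and -0.21 in the other group, so each WT library stayed above. WT replicate 1 stood apart in the granulocyte mean, at -0.66, and the erythroid mean, at -0.55. Without it the granulocyte mean was -0.16 and -0.16 in WT, against 0.22 to 0.40 in the other group, and the erythroid mean was -0.08 and -0.04, against 0.08 to 0.44. Markers of other lineages of the marrow lay the other way. All 16 granulocyte genes had higher means in the knockout-labelled libraries. Of the 16, 11 (68.8%) had an unadjusted p under 0.05 (limma), beside 18.1% of all genes tested. The summed level of the list ran from 7864 to 10890 FPKM in WT and from 12350 to 14580 FPKM in the other group. The median log2 difference of the granulocyte list was 0.45. Mpo, a granule enzyme whose messenger is made by dividing precursors, had the smallest p of that list. It stood at 96.1 ± 22.2 and 245.5 ± 19.5 FPKM, a log2 difference of 1.37. All 16 erythroid genes had higher means, 8 with an unadjusted p under 0.05, with sums of 8973 to 13410 and of 13350 to 16750 FPKM. The 5 tested of 9 stem and progenitor cell genes also had higher means, 3 with an unadjusted p under 0.05, with sums over the 9 of 48.3 to 66.0 and 68.0 to 81.7 FPKM, where Procr, Hoxa9 and Mecom were under 1 FPKM in every library. No marker of these lists was at 0 in every library and none passed the adjusted threshold (limma), the lowest adjusted p being 0.0908. What part these cells have in the level of the 32 genes was not tested.

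Of the remaining lists, 6 of 8 B lineage genes were lower at an unadjusted p under 0.05 (2960 to 3288 and 2832 to 3139 FPKM, WT first). The other 2, Ptprc and Cd74, overlapped between groups with higher knockout means. Cd74, at 1253 to 1715 and 1555 to 1825 FPKM, made up a large part of these sums. The list mean on the log2 scale, relative to the 6 libraries, was 0.03 to 0.21 in WT and -0.13 to -0.11 in the other group. At the same threshold 9 of 11 monocyte genes were higher (sums of 1025 to 1265 and 1378 to 1583 FPKM), and 5 of 10 plasmacytoid dendritic cell genes (1315 to 1514 and 1320 to 1466 FPKM). Of 10 plasma cell genes 3 were higher and 2 lower (815 to 868 and 800 to 997 FPKM), and of 12 immature and mature B cell genes 0 were higher and 1, Cd40, lower (3090 to 3629 and 2927 to 2999 FPKM). Of 11 tested T and NK cell genes 2 were higher (101 to 125 and 120 to 150 FPKM, with Cd3e under 1 FPKM in every library). Over all genes tested 18.1% reached this threshold (limma), 9.2% higher and 8.88% lower. The T and NK cell list (18.2%) lay close to that share and the immature and mature B cell list (8.33%) under it.

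**Figure D4:**
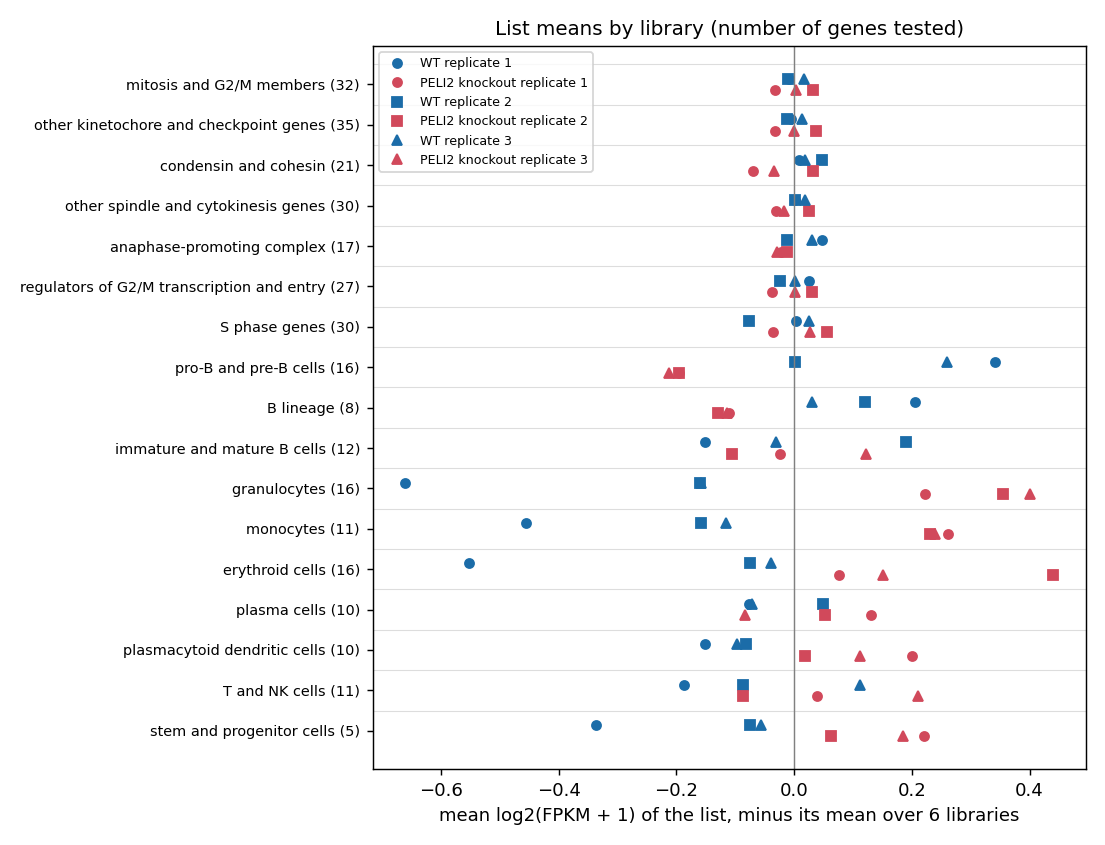
Mean log2(FPKM + 1) of each gene list in each library, as the difference from the mean of the list over 6 libraries, for 3 WT (blue) and 3 PELI2 knockout (red) libraries, with the number of genes tested in brackets. The mitosis and G2/M genes lie between -0.03 and 0.03, while the granulocyte genes run from -0.66 in WT replicate 1 to 0.40 in knockout replicate 3.

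Some of the 32 genes lie over other genes or have copies. Exons of 10 of the 32 genes lie over exons of a gene on the other strand in GENCODE M21, among them Ccna2 with Exosc9, Cdc20 with Elovl1 and Ube2c with Tnnc2, and strand use in the counting is not stated, so reads of such partners, if any were shared, cannot be told apart. Both B cyclins have a processed copy in the table, Ccnb1-ps at 0.501 to 1.29 FPKM and Ccnb2-ps at 0.960 to 1.12 FPKM. Reads behind a gene depend on the transcript assigned: the library with the fewest held 65 to 309 reads of Ttk, from the shortest to the longest coding transcript, and 7593 of Top2a.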

How the data were processed

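RNA of 6 libraries (3 WT, 3 PELI2 knockout) was extracted with TRIzol, selected with oligo(dT), reverse transcribed with random hexamers and read as single ends on a DNBSEQ instrument, per the labels' protocols. Tools listed in the submitters' processing notes, their roles not given, are RSEM 1.2.12, Bowtie2 2.2.5, DESeq2 1.4.5 and HISAT2 2.0.4, with the build GRCm38.p6. The values are the FPKM per gene and library that the authors deposited in 1 table; scaling across libraries is not given in the sources used here, and FPKM are no counts, so no count model was used.

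Depth came from FPKM times length of genes with 1 annotated transcript, for which 99.2% to 99.5% of values under 6 reads were whole within 0.03 reads. The filter kept genes that reached 1 FPKM in 3 libraries. The test used log2(FPKM + 1), which understates changes of low genes, with limma 3.58.1 (R 4.3.3; lmFit, eBayes with a trend, two-sided, no replicate block) and Benjamini-Hochberg adjustment, called under 0.05. The fit and the depth search were tested on simulated data. Positions are those of the table, Sgo2a was matched by ID, and promoters are RefSeq's (GRCm38.p6).

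The 32 genes and the other lists were chosen with earlier results of these data known, so no list was tested. All 32 genes are named, and up to 4 genes per pathway list and 3 per marker list by smallest p. Alternatives were no filter, a filter of 5 FPKM, pseudocounts of 0.1 and 0.5, median-of-ratios scaling, rescaling to a total of 1000000, eBayes without a trend, a replicate block, and each library left out. Figures used matplotlib 3.10.9 in Python 3.11.15.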

Additional observations from a re-analysis of the deposited data

How the results depend on the processing

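None of the 32 genes passed the adjusted threshold under any of the 14 alternatives (limma, lowest adjusted p = 0.165, Nek2 after rescaling to a common total). Genes called over the whole table, 3 as reported, numbered 1 with a filter of 5 FPKM, 6 without a trend and 2 to 16 with 1 library left out, the 16 without PELI2_knockout replicate 3. Of the 32 genes at an unadjusted p under 0.05, 1 as reported, there were 3 with no filter (Cdc25c, Birc5 and Nek2), 6 after rescaling (Cenpa, Ndc80, Top2a, Nek2, Cenpf and Bub1b, all lower), 0 without a trend and 0 to 2 with 1 library left out. The labels do not say whether equal replicate numbers pair libraries. Same-numbered libraries had deviations correlated at 0.10, 0.04 and 0.09, the other pairs at -0.107 to 0, and each library correlated best with its own number. With the replicate block 0 of the 32 had an unadjusted p under 0.05. The median log2 fold change of the 32 was -0.0618 after rescaling and -0.0207 to 0.0188 with 1 library left out, and Peli2 differed by 0.395 to 0.733 FPKM.

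The sign was the same in every alternative for 14 genes and changed in at least 1 for 18. After rescaling the log2 fold change was -0.0611 for Ccna2, -0.0517 for Ccnb1, -0.058 for Ccnb2, -0.0002 for Aurka, -0.0071 for Plk1, -0.0582 for Cdca8, -0.0559 for Ttk, -0.0247 for Nuf2, -0.0624 for Kif20a, -0.0301 for Kif23, -0.0446 for Prc1, -0.0243 for Hmmr and -0.0514 for Mki67. With median-of-ratios scaling it was 0.0058 for Bub1 and 0.0011 for Cdc20. With 1 library left out it ran from -0.0327 to 0.062 for Ccna2, -0.0154 to 0.0713 for Ccnb1, -0.0218 to 0.0443 for Ccnb2, -0.0275 to 0.0236 for Bub1, -0.0631 to 0.0652 for Ttk, -0.0346 to 0.029 for Cenpe, -0.0393 to 0.0515 for Kif20a, -0.0644 to 0.0058 for Kif2c, -0.0393 to 0.0612 for Prc1, -0.0558 to 0.0234 for Nusap1, -0.0492 to 0.0348 for Cdc20 and -0.028 to 0.0518 for Mki67. Rescaling moved the median of all genes by a like amount, to -0.0851. The cause of the other changes was not tested. With 3 libraries per group, the unadjusted intervals of the 32 reached a median of about 0.14 (log2) to either side. That reach is no limit of detection for the adjusted test, which larger differences did not pass. Ebf1, at a log2 fold change of -0.44, had an adjusted p of 0.137 (limma).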
